A study of Mus musculus with 10 samples.

Results

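Mitochondrial chaperones fold the proteins that enter the organelle, and mitochondrial proteases remove those that stay misfolded or are no longer needed. The group described here holds 10 mouse genes chosen by symbol: the matrix chaperones Hspd1, Hspe1, Hspa9 and Trap1, and the proteases Lonp1, Clpp, Htra2, Yme1l1, Afg3l2 and Spg7. All 10 were found among 57010 gene identifiers of the deposited table, each as a single row, and all 10 passed the filter on low values that left 15223 genes for testing. RNA came from C2C12 cells, a mouse myoblast line (genotype given as WT) that fuses into myotubes when serum is lowered. Cells had differentiated for 3 days before they received an adenovirus carrying Arrdc2 together with Gfp (Arrdc2 group, 5 libraries) or Gfp alone (GFP group, 5 libraries), and RNA was taken 48 h later. Both groups therefore carry adenovirus and Gfp, and all libraries come from a single cell line. Arrdc2 encodes an alpha-arrestin, an adaptor that links membrane proteins to ubiquitin ligases, and the comparison asks which transcripts differ when it is supplied to myotubes.

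Nearly all mitochondrial proteins are made in the cytosol and threaded unfolded through the outer and inner membranes. In the matrix, mtHSP70 (Hspa9) pulls them in and helps them fold, and the barrel of HSP60 (Hspd1) with its lid HSP10 (Hspe1) encloses them while they fold. LONP1 and the CLPX-CLPP complex degrade proteins in the matrix, the m-AAA protease (AFG3L2 with SPG7) and the i-AAA protease (YME1L1) act from the inner membrane towards opposite sides, and HTRA2 is a serine protease of the intermembrane space. When proteins misfold in mitochondria, transcription of several of these genes rises, a response in which ATF4, ATF5, CHOP (Ddit3) and HSF1 take part in mammals. Muscle depends on this machinery for its respiratory chain, and human variants in several of the genes affect nerve and muscle.

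Hspd1 and Hspe1 lie head to head. RefSeq (GRCm38.p6) places a start of Hspd1 on the minus strand and the start of Hspe1 on the plus strand of chromosome 1, with 215 bases between them, so the interval is upstream of both starts. RefSeq also lists a further Hspd1 start on the far side of the Hspe1 start, from which the interval lies downstream. The build named in the submitters' notes is GRCm39, so the coordinates below belong to the reference and not to the deposited table. The interval is shown because both flanking genes fell. Capitals mark 4 adjoining units of the heat shock element, the site that HSF1 is known to bind, searched on both strands as alternating TTC and GAA units with any 2 bases between them, starting from either unit. A run of 4 units was present in 8 of 32851 mouse promoter windows (0.0244%), of which 2 are the overlapping windows of Hspd1 and Hspe1, and a run of 3 such units in 0.603%. The ETS site CCGGAAG overlaps the element. Windows for Lonp1, which fell, and Trap1, which was not called, are shown with the cyclic AMP response element TGACGTNA in capitals. It is a site for CREB and ATF proteins, held by 2.93% of windows, and the Lonp1 match ends on the first transcribed base.
Hspd1-Hspe1 interval, GRCm38.p6 chr1:55087933-55088147, plus strand: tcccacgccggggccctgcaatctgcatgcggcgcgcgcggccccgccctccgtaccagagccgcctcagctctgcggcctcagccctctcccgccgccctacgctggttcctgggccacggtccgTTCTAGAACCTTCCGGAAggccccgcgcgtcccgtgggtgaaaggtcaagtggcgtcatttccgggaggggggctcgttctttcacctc
Lonp1, GRCm38.p6 chr17:56626903-56627153, minus strand: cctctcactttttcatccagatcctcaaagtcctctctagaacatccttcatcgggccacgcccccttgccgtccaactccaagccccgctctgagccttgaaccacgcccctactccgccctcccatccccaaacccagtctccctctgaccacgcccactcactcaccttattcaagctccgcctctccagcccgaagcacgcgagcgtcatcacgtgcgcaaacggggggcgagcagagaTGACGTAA
Trap1, GRCm38.p6 chr16:4077810-4078060, minus strand: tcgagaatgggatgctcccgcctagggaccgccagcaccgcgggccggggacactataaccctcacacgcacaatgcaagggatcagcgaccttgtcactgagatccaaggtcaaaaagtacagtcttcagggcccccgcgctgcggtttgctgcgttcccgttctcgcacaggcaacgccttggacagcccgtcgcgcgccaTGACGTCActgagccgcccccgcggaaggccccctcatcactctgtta
Promoter windows were searched for 7 of the members. No window was searched for Hspa9, Afg3l2 or Htra2, which also fell, so the motif statements do not cover these genes. Within 250 bases before and 50 bases after the start, paired heat shock units (TTCNNGAA or GAANNTTC, found in 15.1% of all windows) were present for Hspd1, Hspe1 and Clpp and not in the windows of Trap1, Lonp1, Yme1l1 or Spg7. Those of Hspd1 and Hspe1 lay before the start, within the run of 4 units, whereas Clpp had a single pair, beginning at transcribed base 34. The window of the further Hspd1 start held none. The element TGATGNAA, to which ATF4 with C/EBP proteins is known to bind, was in none of the 7 genes' windows and in 3.97% of all windows. These matches describe letters in a window and were not tested as binding sites.

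Values below are normalised reads unless stated otherwise: whole read counts solved from the deposited regularized log (rlog) values and divided by the size factor of the library. Depth was 18.93 to 26.03 M reads (M, mega) in the GFP group and 23.5 to 28.65 M in the Arrdc2 group. Library numbers are those of the column names; the labels number the samples differently. Whether a group's libraries are separate cultures is not stated, and p-values then measure the spread between these libraries, which may be technical. Each log2 difference, its standard error (SE) and its adjusted p were obtained with limma on the deposited values, and a gene was called at an adjusted p below 0.05 over all 15223 genes. Arrdc2 itself was 103 ± 14.5 reads in GFP and 132 ± 15.6 in Arrdc2 (SD, n = 5 each; limma adjusted p = 0.0178), and 3 of 5 Arrdc2 values exceeded all GFP values. Leaving out a library ended this call in 3 cases, namely GFP library 3 (limma adjusted p = 0.0501), GFP library 7 (0.0520) and Arrdc2 library 9 (0.0570). No source used here says if transcripts of the transgene were assigned to this row. The labels give the cell type as myoblast, whereas all 8 myotube markers were tested, with a summed level of 321604 to 346625 reads in GFP and 285170.5 to 326148.5 in Arrdc2. Of these, 3 were called lower (Myh8, Acta1 and Des), and of 4 myoblast markers 2 were called higher (Myf5 and Pax7). Whether these shifts have a part in the results below was not tested; in bulk RNA, fewer cells of a type and less RNA per cell cannot be told apart. Fibroblast markers summed to 644 to 798 reads in GFP and 738 to 898 in Arrdc2, and of 3 tested 1 was called higher (Dpt, 17.7 ± 4.51 to 28.7 ± 6.84 reads, SD, n = 5; limma adjusted p = 0.0261). Endothelial markers summed to 32.2 to 45.7 reads in GFP and 43.9 to 68.2 in Arrdc2, and the 1 tested, Tek, was called higher (27.4 ± 4.86 to 44.4 ± 7.91 reads, SD, n = 5; 1.61-fold, limma adjusted p = 0.00578). The part of these markers in the results was not tested either. All 4 adipocyte markers, 3 of 4 macrophage markers (all but Cd68, which was not called) and 2 of 4 endothelial markers (Pecam1 and Cdh5) stayed under 10 reads in every library.

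Of the 10 members 6 were called lower in the Arrdc2 libraries, 0 were called higher and 4 were not called. Among all tested genes 15.8% were called lower and 14.5% higher (30.3% in either direction). The median log2 difference was −0.16 over the members and 0.003 over all tested genes. The 6 were Hspd1, Hspe1, Hspa9, Lonp1, Afg3l2 and Htra2, and for each of them every Arrdc2 library lay below every GFP library, which held for 11.0% of tested genes (the reverse, every Arrdc2 library above every GFP library, held for 8.70%). The share of higher genes among all calls moved with scaling, from 47.9% to 37.4% (1766 higher, 2960 lower) when libraries were centred on their median, to 65.3% (2970 higher, 1575 lower) when they were centred on 16 mitochondrial content genes, and to 63.3% (3063 higher, 1774 lower) by voom with total reads. The same 6 members were called in each of these fits. Tested against a minimum log2 difference of 0.2 in rlog values (limma treat), Hspd1 and Hspe1 were called lower, among 0.841% of tested genes. Hspa9, Lonp1, Afg3l2 and Htra2 were not (adjusted p = 1). The rlog values understate folds, and no minimum was tested on recovered reads. On those reads the log2 differences were −0.296 for Hspa9, −0.320 for Lonp1, −0.265 for Afg3l2 and −0.177 for Htra2. Spread within a group was small, with coefficients of variation of 2.43% (Trap1 in GFP) to 6.38% (Lonp1 in GFP).

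**Figure D1:**
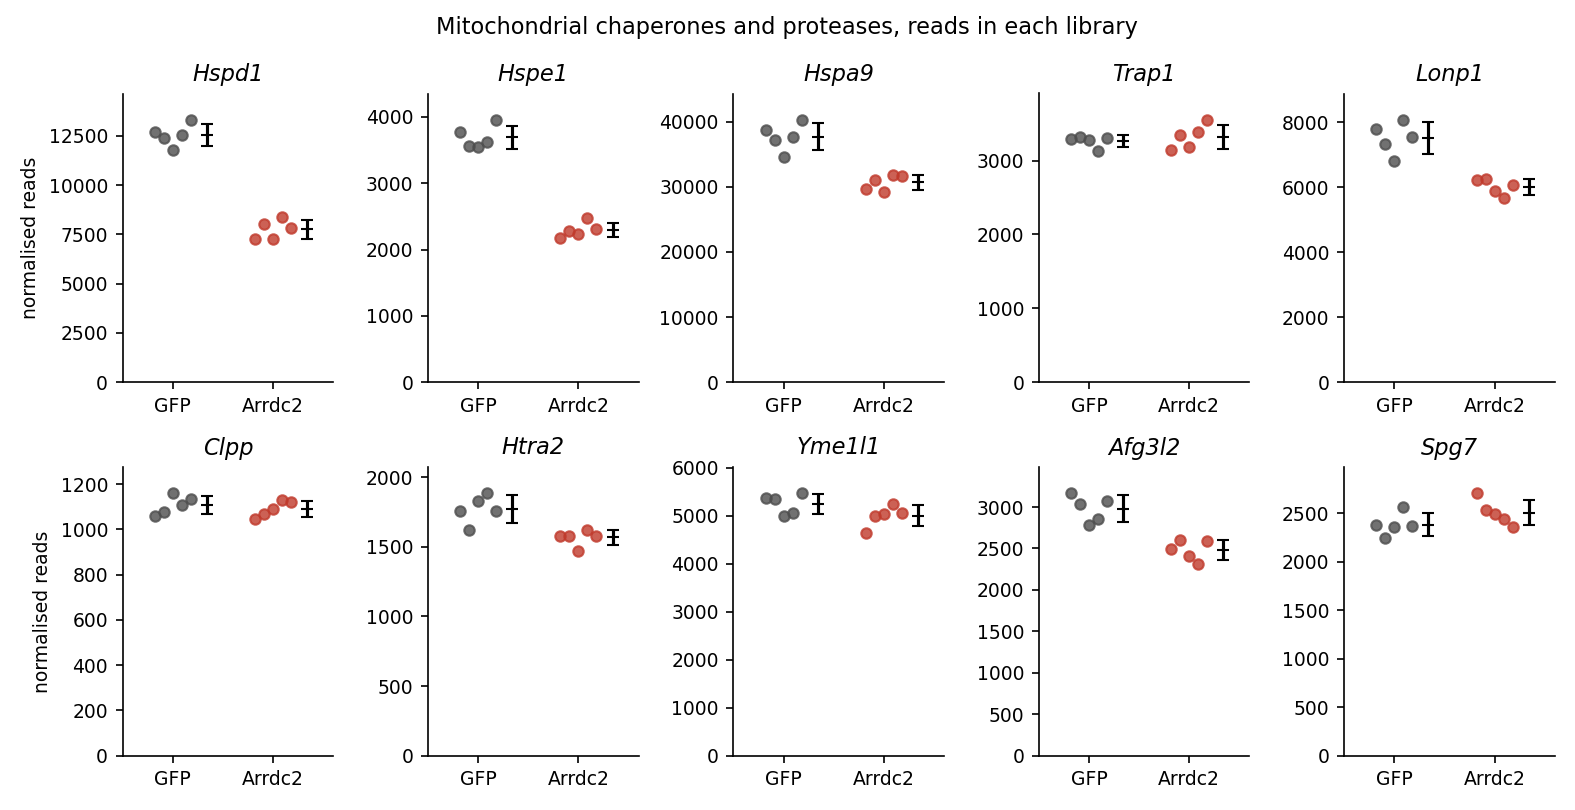
Normalised reads (vertical axes, each from 0) of the 10 members in each GFP (grey) and Arrdc2 (red) library, with the mean and SD of 5 libraries in black. Groups are separate for Hspd1, Hspe1, Hspa9, Lonp1 and Afg3l2, nearly touch for Htra2, and overlap for Trap1, Clpp, Yme1l1 and Spg7.

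HSP60 and its lid had the lowest folds among the members. Hspd1 (ENSMUSG00000025980.15), the subunit of the folding barrel, was at 12712.5, 12409, 11765.5, 12536.5 and 13311 normalised reads in the GFP group (libraries 3 to 7, in this order throughout). In the Arrdc2 group (libraries 6, 7, 9, 10 and 11, in this order throughout) it was at 7260.1, 8008, 7285, 8354 and 7816. The lowest GFP library thus stood well above the highest Arrdc2 library. Means were 12547 ± 557 in GFP and 7745 ± 472 in Arrdc2 (SD, n = 5), a 1.62-fold fall (95% interval 1.52 to 1.73). The rlog values differed by −0.555 ± 0.035 (SE, limma adjusted p = 1.67e-09), and Hspd1 ranked 23 among 15223 genes from the largest fall.

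Hspe1 (ENSMUSG00000073676.5) encodes the HSP10 lid that closes the barrel. It had 3773, 3565, 3551, 3627.5 and 3958 reads in the GFP group, against 2181, 2278.5, 2231, 2473 and 2309 in the Arrdc2 group. Again the groups were far apart. Hspe1 went from 3695 ± 172 to 2295 ± 111 (SD, n = 5), a 1.61-fold fall (95% interval 1.51 to 1.71; log2 difference −0.52 ± 0.03 SE, limma adjusted p = 1.36e-09). The ratio of lid to barrel was compared within libraries. In reads, Hspe1 over Hspd1 was 0.295 ± 0.006 in GFP and 0.297 ± 0.008 in Arrdc2 (SD, n = 5). Their rlog values differed by −1.77 ± 0.02 in GFP and −1.74 ± 0.03 in Arrdc2, a shift of 0.03 that did not pass an exact 2-sided permutation test (p = 0.119, adjusted over 5 ratios p = 0.149). Without Arrdc2 library 7 the shift was 0.04 with an unadjusted exact permutation p of 0.0476. On recovered reads of all libraries the log2 shift was 0.010 (unadjusted exact permutation p = 0.667).

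The mitochondrial HSP70 also fell. Hspa9 (ENSMUSG00000024359.11), also called mortalin, had 38817, 37201, 34624, 37721.5 and 40319 reads in the GFP libraries and 29682, 31121, 29293, 31796 and 31651 in the Arrdc2 libraries. Every Arrdc2 library was lower than GFP library 5, the lowest of its group. The fall from 37737 ± 2110.3 to 30708.5 ± 1151 (SD, n = 5) was 1.23-fold (95% interval 1.16 to 1.302; log2 difference −0.24 ± 0.035 SE, limma adjusted p = 4.34e-05). The ratio to Hspd1 was tested within libraries, where library scaling cancels for reads but not exactly for rlog values. Reads of Hspa9 were 3.01 ± 0.04 times those of Hspd1 in GFP and 3.97 ± 0.12 times in Arrdc2 (SD, n = 5). On the rlog scale the difference between Hspa9 and Hspd1 grew by 0.315, with all 5 Arrdc2 libraries above all GFP libraries. The exact 2-sided permutation p was 0.00794, the smallest that 252 assignments allow, and 0.0132 when adjusted over 5 ratios. For recovered reads the log2 shift was 0.401 (unadjusted exact permutation p = 0.00794).

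Trap1 (ENSMUSG00000005981.12), the mitochondrial member of the HSP90 family, was not called. It lay between 3129.5 and 3324 reads in GFP and between 3149 and 3554 in Arrdc2, so the groups overlapped. The means of 3269 ± 79.5 and 3323 ± 164 (SD, n = 5) correspond to 1.02-fold, with a 95% interval of 0.959 to 1.08 (limma adjusted p = 0.705).

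Of the matrix proteases, Lonp1 fell and Clpp was not called. Lonp1 (ENSMUSG00000041168.11) encodes an ATP-dependent protease that degrades oxidised and unassembled matrix proteins and binds mitochondrial DNA. Its reads were 7804, 7321, 6818, 8074 and 7534 in the GFP group and 6213, 6237, 5876, 5656 and 6072 in the Arrdc2 libraries. All Arrdc2 values were below the lowest GFP value, and the highest was GFP library 6. Lonp1 went from 7510.1 ± 479 to 6011 ± 245 (SD, n = 5), a 1.25-fold fall (95% interval 1.17 to 1.33; log2 difference −0.25 ± 0.035 SE, limma adjusted p = 3.00e-05).

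Clpp (ENSMUSG00000002660.9) encodes the peptidase chamber that works with the unfoldase CLPX. It ranged from 1060 to 1160.3 reads in GFP and from 1045 to 1132 in Arrdc2, with 1 Arrdc2 library below the lowest GFP library. The difference was 0.984-fold with a 95% interval of 0.925 to 1.05 (limma adjusted p = 0.727). Clpx went from 1728 ± 92.5 to 1614 ± 79.9 (SD, n = 5) and was not called either (limma adjusted p = 0.1196). The log ratio of Clpx to Clpp shifted by −0.055 (exact 2-sided permutation p = 0.246, adjusted over 5 ratios p = 0.246). Without GFP library 5 this shift was −0.09 with an unadjusted exact permutation p of 0.0317.

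Of the m-AAA protease subunits, Afg3l2 fell and Spg7 was not called. Afg3l2 (ENSMUSG00000024527.11), the subunit able to form the protease alone, had 3167, 3033, 2786, 2851 and 3075 reads in the GFP libraries and 2488, 2603, 2411, 2314 and 2592 in the Arrdc2 libraries. No Arrdc2 library reached the lowest GFP library. It fell 1.201-fold, from 2982 ± 159 to 2481.5 ± 123 (SD, n = 5; 95% interval 1.13 to 1.28; limma adjusted p = 0.000192). Spg7 (ENSMUSG00000000738.19) encodes paraplegin, which assembles with AFG3L2 and is altered in a hereditary spastic paraplegia of humans. Its reads were 2379, 2240.2, 2356, 2564 and 2369 in the GFP libraries and 2705, 2529, 2493, 2437 and 2358.5 in the Arrdc2 libraries. The groups overlapped, with 1 Arrdc2 library above the highest GFP library, and limma made no call (adjusted p = 0.235; 1.05-fold with a 95% interval of 0.986 to 1.12).

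The ratio of these partners differed between the groups. Spg7 reads were 0.801 ± 0.069 times those of Afg3l2 in GFP, with single libraries from 0.739 to 0.899, and 1.01 ± 0.07 times in Arrdc2, from 0.910 to 1.09 (SD, n = 5). The log ratio rose by 0.25 on the rlog scale without overlap of the groups (exact 2-sided permutation p = 0.00794, adjusted over 5 ratios p = 0.0132). Afg3l1, a further m-AAA subunit in mice, went from 1791 ± 82.2 to 1884 ± 66.2 reads (SD, n = 5) and was not called (limma adjusted p = 0.201). The prohibitins Phb and Phb2, ring-forming scaffolds that bind the m-AAA protease, were both called lower. Phb fell 1.24-fold (limma adjusted p = 5.495e-05) and Phb2 1.08-fold (limma adjusted p = 0.0204).

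Yme1l1 (ENSMUSG00000026775.10), the i-AAA protease facing the intermembrane space, was not called. It ranged from 4993 to 5464 reads in GFP and from 4640.3 to 5237 in Arrdc2, and 2 of 5 Arrdc2 libraries lay below the lowest GFP library. The fold was 0.952 with a 95% interval of 0.899 to 1.01 (limma adjusted p = 0.198). Relative to Afg3l2 it differed between the groups, at 1.76 ± 0.04 times the reads of Afg3l2 in GFP and 2.02 ± 0.16 times in Arrdc2 (SD, n = 5). The rlog difference shifted by 0.145 (exact 2-sided permutation p = 0.00794, adjusted over 5 ratios p = 0.0132). Both this ratio and that of Spg7 to Afg3l2 contain the fall of Afg3l2, so neither is independent of it. How many other gene pairs shifted as much was not computed. Oma1, the inner membrane protease that cleaves OPA1 under stress, had 307 ± 19.3 and 323 ± 21.5 reads (SD, n = 5) and was not called (limma adjusted p = 0.422).

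**Figure D2:**
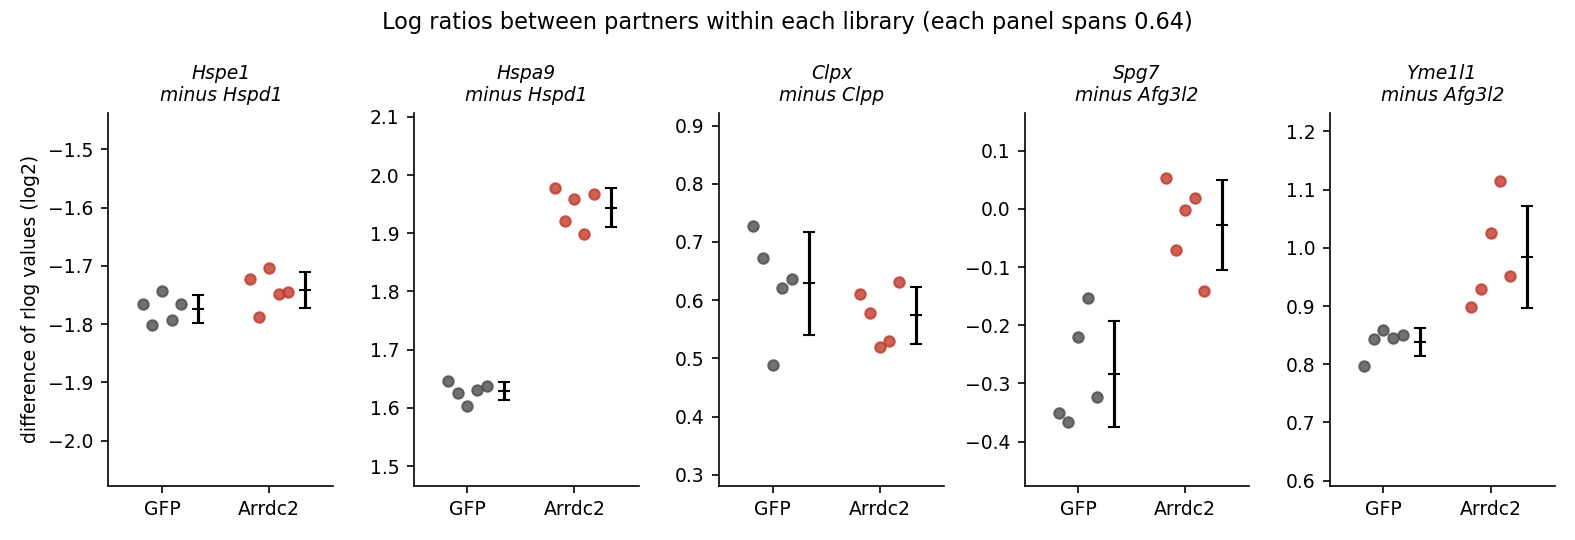
Difference of rlog values between partners within each GFP (grey) and Arrdc2 (red) library, with mean and SD in black and panels of equal height (log2 units). Hspa9 to Hspd1, Spg7 to Afg3l2 and Yme1l1 to Afg3l2 are separate between groups (shifts of 0.315, 0.25 and 0.145), whereas Hspe1 to Hspd1 and Clpx to Clpp overlap.

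Htra2 (ENSMUSG00000068329.13), which in dying cells is released and binds inhibitors of apoptosis, fell by the least of the called members. Its reads were 1759, 1622.5, 1833, 1885 and 1760.4 in the GFP libraries and 1581, 1581, 1473.5, 1622 and 1580.3 in the Arrdc2 libraries. GFP library 4 and Arrdc2 library 10 were within a read of each other, so the groups were separate only narrowly. The fall from 1772 ± 99.02 to 1567.5 ± 55.5 (SD, n = 5) was 1.13-fold (95% interval 1.06 to 1.21; limma adjusted p = 0.00555). Htra2 overlaps Aup1 by 753 bases and Loxl3 by 1297 bases on the opposite strand in GENCODE vM21, and the strand setting of the counting is not given. Neither neighbour was called (limma adjusted p = 0.599 for Aup1 and 0.859 for Loxl3).

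**Figure D3:**
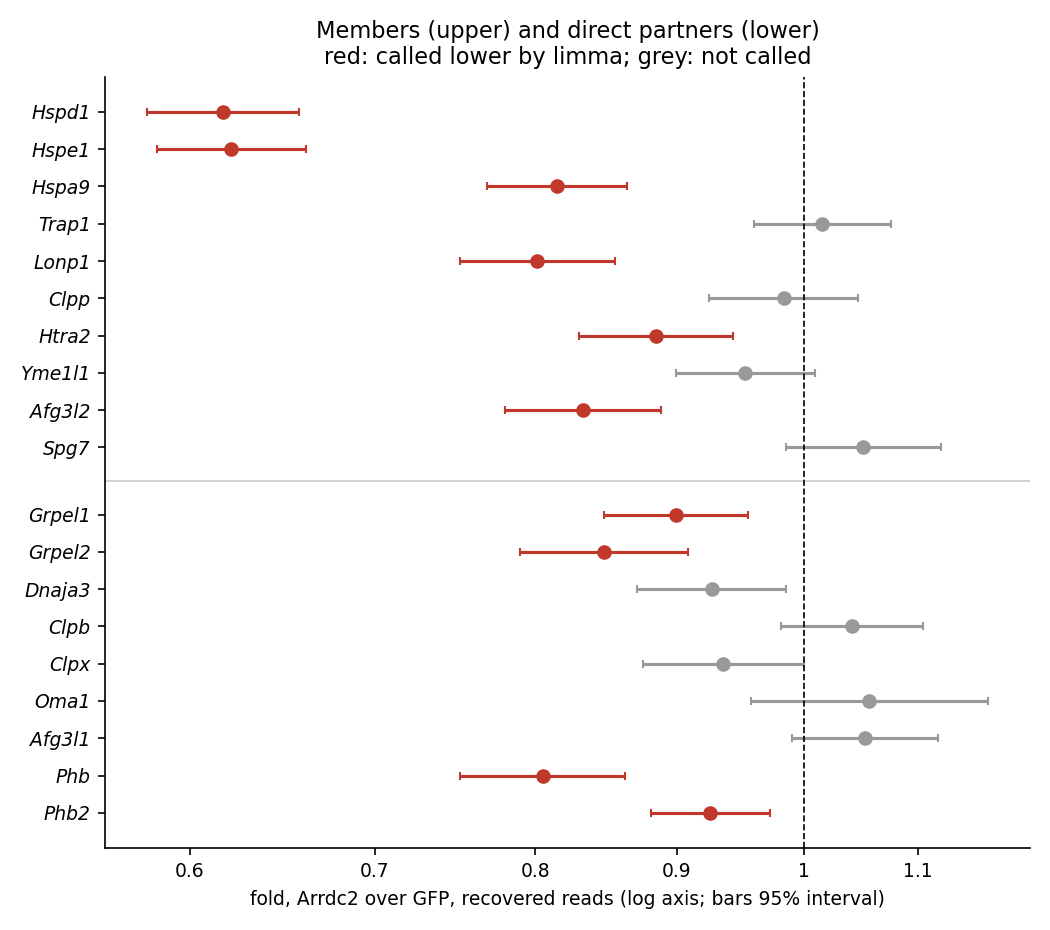
Fold of Arrdc2 over GFP from recovered reads (log axis, bars are 95% intervals) for the members above the line and direct partners below it. Hspd1 (0.617) and Hspe1 (0.621) lie apart from the other called members, which run from 0.801 for Lonp1 to 0.884 for Htra2.

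Levels between genes were compared per kilobase (kb) of exon. In GFP, Hspa9 was highest at 12377 ± 692 normalised reads per kb, followed by Hspd1 (5178 ± 229.9), Hspe1 (4774 ± 222), Lonp1 (2545 ± 162) and Trap1 (1409 ± 34.3; SD, n = 5 each). Clpp (1128 ± 41.9), Yme1l1 (1114 ± 44.3), Htra2 (1027 ± 57.4), Afg3l2 (964 ± 51.3) and Spg7 (752 ± 36.7) formed the lower end. The ranges of Hspd1 and Hspe1 overlapped across libraries, but within each of the 10 libraries Hspd1 was above Hspe1 on these exon lengths. Neighbours from Clpp to Afg3l2 had overlapping ranges in GFP, and there their order varied between libraries: Clpp was above Yme1l1 in 2 of 5, and Yme1l1 above Htra2 and Htra2 above Afg3l2 in 3 of 5 each. The order of the means was the same in Arrdc2, where each of these 3 orders held in 5 of 5 libraries. Afg3l2 was above Spg7 in 5 of 5 GFP libraries and in 2 of 5 Arrdc2 libraries, where their levels were 802 ± 39.6 and 791 ± 40.8. Exon lengths come from GENCODE vM21 and not from the annotation the authors counted with.

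**Figure D4:**
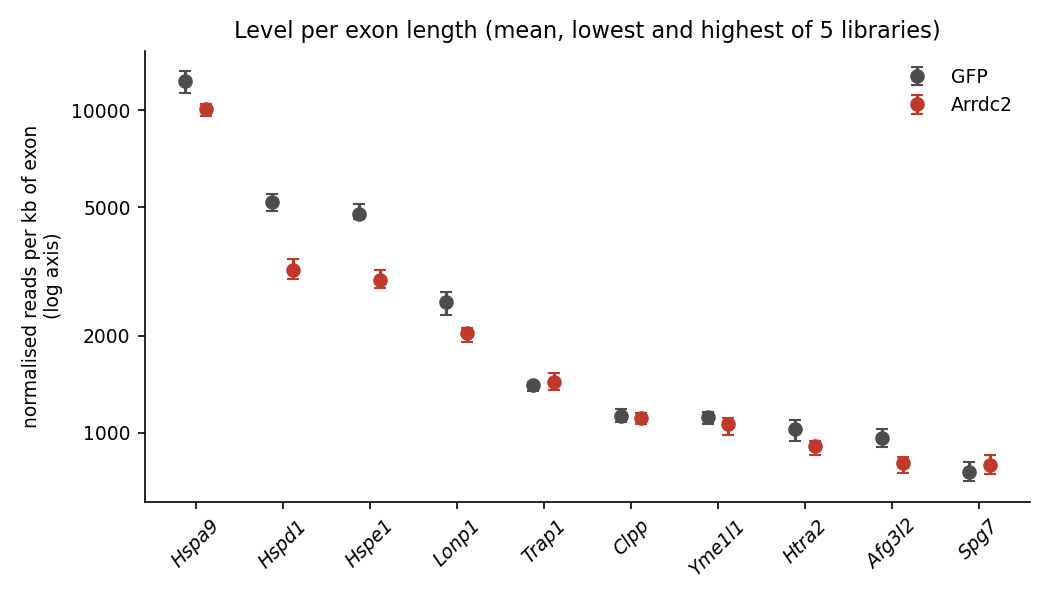
Normalised reads per kb of exon (log axis) for each member in GFP (grey) and Arrdc2 (red), as the mean with the lowest and highest of 5 libraries. Hspa9 stands above all others at 12377 in GFP and 10072 in Arrdc2, and the 5 genes from Clpp to Spg7 lie between 752 and 1128 in GFP.

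Among 10 co-chaperones and import-motor partners of mtHSP70 and HSP60, 2 were called lower and 1 higher (median log2 difference −0.05, against 0.003 over all tested genes). These shares are near those over all tested genes, 15.8% lower and 14.5% higher, against which each list count below should also be read. The lists, like the members, were chosen with earlier results of these data known, so none of these counts is an independent test. The nucleotide exchange factors of mtHSP70 were those that fell, Grpel2 by 1.18-fold (limma adjusted p = 0.00087) and Grpel1 by 1.11-fold (limma adjusted p = 0.00859), and Dnajc15, a J-protein of the import motor, rose 1.16-fold. The J-protein Dnaja3 (limma adjusted p = 0.0565) and the disaggregase Clpb (0.304) were not called. Of 19 other mitochondrial proteases and scaffolds 6 were called lower and 1 higher (median −0.06). Besides Phb, Atad3a, an inner membrane ATPase, fell 1.21-fold, the rhomboid protease Parl 1.201-fold and the aminopeptidase Xpnpep3 1.17-fold, and the call in the other direction was Afg1l (1.16-fold). Of 25 tested import genes 11 were called lower and 1 higher (median −0.05), led by the outer membrane receptor Tomm70a, which went from 5452 ± 179 to 4327 ± 61.2 reads (SD, n = 5; 1.26-fold, limma adjusted p = 1.199e-06). The intermembrane space import factor Chchd4 fell 1.196-fold, the small chaperone Timm10 1.18-fold and the receptor Tomm20 1.16-fold, and Tomm5, a small subunit of the outer membrane channel, was the gene called higher.

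Among 12 substrates and partners of the proteases 0 were called lower and 3 higher (median 0.03). Prelid1, a lipid carrier of the intermembrane space that YME1L1 degrades, rose from 5005 ± 161 to 6151 ± 237 reads (SD, n = 5), 1.23-fold (limma adjusted p = 1.08e-05). Alas1, the first enzyme of haem synthesis, and Ucp2, a carrier of the inner membrane, each rose 1.14-fold. Of 16 general markers of mitochondrial content 2 were called lower (Vdac3 by 1.12-fold and Gabpa by 1.08-fold) and 1 higher (Ndufb8, 1.23-fold), with a median of −0.02, which is no larger a share in either direction than the 15.8% lower and 14.5% higher over all tested genes. With each library centred on the mean of these 16 genes, the log2 differences were −0.53 for Hspd1, −0.50 for Hspe1, −0.23 for Lonp1, −0.22 for Hspa9, −0.18 for Afg3l2 and −0.105 for Htra2, and all 6 were still called (limma adjusted p from 8.84e-09 to 0.0342).

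Of 10 regulators of the mitochondrial unfolded protein response 4 were called lower and 3 higher (median log2 difference −0.05). Ddit3, which encodes CHOP, fell 1.54-fold (limma adjusted p = 1.41e-07), Atf4 went from 13170 ± 1023 to 9411 ± 373 reads (SD, n = 5; 1.397-fold, limma adjusted p = 7.499e-07), Atf5 fell 1.29-fold (limma adjusted p = 2.91e-06) and Cebpb 1.35-fold (limma adjusted p = 0.00438). Hsf1, the heat shock factor, was not called (limma adjusted p = 0.12), and the rises were those of Eif2ak1, Esrra and Sirt3 (1.09-fold to 1.12-fold). In a list of stress effectors, all 11 genes of the integrated stress response were called lower (median log2 difference −0.35). They included the pseudokinase Trib3 (2.01-fold), the secreted factor Gdf15 (1.38-fold), the asparagine synthetase Asns (1.58-fold) and Phgdh, the first enzyme of serine synthesis (1.39-fold). All 16 cytosolic heat shock genes were called lower, with a median of −0.43, among them the inducible HSP70 genes Hspa1b (3.77-fold) and Hspa1a (3.03-fold) and their co-chaperones Hsph1 (2.10-fold) and Dnajb1 (1.74-fold). Reads of the near-identical Hspa1a and Hspa1b cannot be assigned with certainty.

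**Figure D5:**
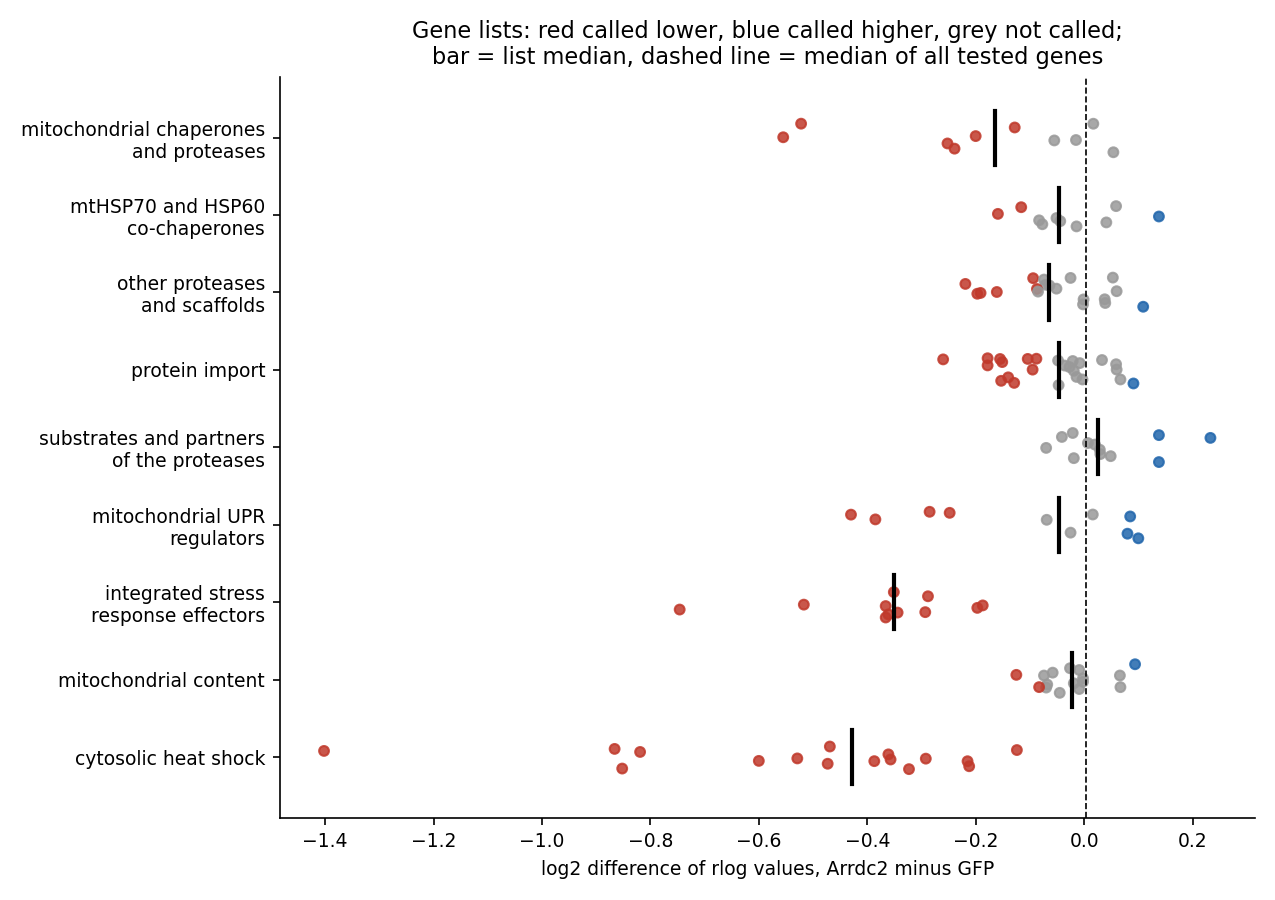
Log2 difference of rlog values (Arrdc2 minus GFP) of each tested gene in the members and 8 related lists, with the list median as a bar and the median of all tested genes as a dashed line. Members spread from −0.555 to 0.05, and their median (−0.16) lies between those of the cytosolic heat shock genes (−0.43) and the mitochondrial content genes (−0.02).

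The tested gene whose rlog values over the 10 libraries were most like those of Hspd1 was Hspe1 (Pearson r = 0.996), followed by Prdx6 (0.995), Wdr4 (0.995), Ccdc137 (0.994) and Plk2 (0.994). The libraries fall into 2 groups that differ in all these genes, so r mostly reflects that shared split, and it is given as a description. In the same ranking Hspa9 came at 160 (r = 0.972), Lonp1 at 788 (0.910), Afg3l2 at 890 (0.897) and Htra2 at 1491 (0.829), whereas Trap1 (−0.116) and Spg7 (−0.529) had values of the opposite sign.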

How the data were processed

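RNA-seq libraries of C2C12 myotubes were compared between 5 GFP and 5 Arrdc2 samples, grouped by GEO's labels. The deposited table holds log2-scale rlog values; the submitters' processing notes name STAR 2.7.10a, DESeq2 1.30.1 and GRCm39, but no source used here gives the counting tool, its strand setting or its annotation. A column's name shows its group, not its labelled replicate. Of 57010 identifiers, 52029 matched a GENCODE vM21 symbol, 24903 were 0 in every library, and 15223 with a mean rlog of at least 3 were tested in limma 3.58.1 (R 4.3.3) with a mean-variance trend and Benjamini-Hochberg adjustment.

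Because rlog values are shrunken, which understates folds, most of all for genes with few reads, whole reads were solved from them by inverting the penalised count model. In 7647 tested genes held out from that fit, 98.74% of values fell within 0.1 of a whole read (20% by chance), and 93.64% at a mean rlog of 12 to 20. These reads gave depths, normalised reads and limma-voom folds with 95% intervals, which cover the spread between libraries. Ratios between members used an exact permutation test on differences of rlog values, adjusted over 5 pairs. Scripts were tested on simulated data. Promoter sequences were credited to RefSeq, GRCm38.p6, and motifs searched on both strands with Python 3.11.15.

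The members and lists were chosen with earlier results of these data known, and the 5 pairs were formed from their genes. Named genes were all members, Arrdc2, direct partners whatever their test, up to 4 called genes per list with the smallest p, and the 5 genes most like Hspd1. Other genes named (Afg1l, Tomm5, Eif2ak1, Esrra, Sirt3, the cell type markers, and the neighbours of Htra2) were named after their values were seen. Alternatives covered filters, scaling, variance models, library weights, a minimum effect and leaving out each library. Some gene models overlap: Hspd1 and Hspe1 share 112 bases on opposite strands, and Spg7 shares its span with Gm20388, which is not used here. Pseudogenes named for Hspd1, Hspa9 and Hspe1 had at most 35 reads in any library.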

Additional observations from a re-analysis of the deposited data

Results flagged for a closer look

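Trap1 in GFP library 6 stood apart from the other 4 GFP libraries, at an rlog value of 11.629 against 11.683 to 11.695. The gap took 0.809 of the range of the group, above Dixon's 95% critical value for 5 samples. Htra2 in Arrdc2 library 9 was low in the same way, at 10.575 against 10.647 to 10.674, a gap share of 0.731. Among the 22 groups checked, chance alone would set apart about 1 in 20.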

How the results depend on the processing

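The same 6 members were called lower under every filter, scaling, variance model, weighting and left-out library that was run, with limma adjusted p-values up to 0.0342 (Htra2, libraries centred on mitochondrial content genes). The exception was the test against a minimum log2 difference of 0.2, which called 2 members lower; over all genes it called 128 lower and 23 higher, and over the lists 18 lower and 0 higher, against 2404, 2212, 52 and 10. Fewer calls follow from its construction, since a difference has to exceed 0.2 clearly in relation to its SE. On the rlog scale of this test, Hspa9 (−0.239 ± 0.035 SE) and Lonp1 (−0.252 ± 0.035 SE) were beyond 0.2 in size but were not called. On recovered reads, where no minimum was tested, their log2 differences were −0.296 and −0.320. Centring on mitochondrial content genes gave 1575 genes lower, and centring on the median gave 6 list genes higher. These fits moved the median log2 difference of all tested genes from 0.003 to 0.025 and to −0.011, respectively. How far this shift accounts for the counts was not tested. Leaving out each library in turn gave 6 to 10 list genes higher. Arrdc2 was not called under quantile normalization (0.086 log2) or against the minimum difference (0.108), and lay between 0.085 and 0.127 with a library left out. With a library left out the shift of Hspe1 to Hspd1 ran from 0.023 to 0.044 and that of Clpx to Clpp from −0.090 to −0.031; each passed an unadjusted 0.05 in a single case. Differences that were never called changed sign for Clpp (0.007 when centred on mitochondrial content genes, 0.016 by voom with total reads) and for Trap1 (−0.002 to 0.032 with a library left out). No paired analysis was possible because the numbers in the column names cannot be tied to the replicate numbers of the labels, so the replicate block was not run. At 18.93 to 28.65 M reads a library, every member had over 1000 normalised reads in each library. Recovery of whole reads was least complete for the most abundant genes.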

Other observations

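Besides Hspd1 and Hspe1, 6 genes had a promoter window with 4 adjoining heat shock units, and they were named after their values were seen. Chordc1, which encodes a partner of HSP90, was called lower (log2 difference −0.29 ± 0.04 SE, 1.304-fold, limma adjusted p = 1.02e-05), as was Kctd18 (−0.10 ± 0.03 SE, limma adjusted p = 0.0208). Arpc2, a subunit of the actin-nucleating ARP complex (−0.01 ± 0.03 SE, limma adjusted p = 0.801), and Fam149a (0.04 ± 0.04 SE, limma adjusted p = 0.4501) were not called. Gm38873 and Gm41230 were not tested. Over all tested genes 15.8% were called lower and 14.5% higher, and Chordc1 is also in the list of cytosolic heat shock genes. Whether the element has a part in these differences was not tested.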
